A study of Homo sapiens with 9 samples.

Results

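The 302 genes described here are those whose symbol is ZNF followed by digits alone and whose read counts, summed over all 9 libraries, came to 300 or more. They were 302 of 472 symbols of that form and of 19969 symbols in all, and the other 170 ZNF symbols fell below 300. Most ZNF proteins carry C2H2 zinc fingers, short loops folded around a zinc ion, and arrays of them read DNA base by base. A large part of the family also has a KRAB domain, which recruits TRIM28 and, through it, SETDB1, HP1 proteins and histone deacetylases, and so silences transposable elements and other targets. KRAB genes arose largely by local duplication, and many stand in clusters on chromosome 19.

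HEK293T, a human embryonic kidney cell line, was the source of all 9 libraries, which were made from RNA with ribosomal RNA removed. Of these, 6 carried an FHY1-M3 construct. FHY1 is a plant protein that binds phytochrome A in red and far-red light signalling, and the labels do not spell out M3. The 6 FHY1-M3 libraries comprised 2 with an ACTB guide RNA (ACTB sgRNA), 2 with a con sgRNA and 2 with a non-target sgRNA. The reference was 3 libraries called input. The series is about light-controlled editing of N6-methyladenosine (m6A), a mark on RNA. The labels give neither the light each culture received nor the construct state of the input cells. Nor do they say whether FHY1-M3 libraries held total RNA or RNA pulled down by an antibody, so abundance and pull-down cannot be told apart in any comparison with input. In the count table the con columns are named con_ACTB_sgRNA, so it is open to doubt whether they differ from the ACTB group in guide.

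Library totals were 2900021 to 3802681 counts with FHY1-M3 and 350413 to 643954 counts in input, a 9.29-fold gap between the group medians. Among the 302 genes the median count per library was 109 to 142 with FHY1-M3, against 10, 16 and 9 in input replicates 1, 2 and 3. No member was at 0 in an FHY1-M3 library, while 26, 3 and 29 members were at 0 in input replicates 1, 2 and 3. The HEK293T markers VIM, NEFL, NEFM and CDH2 were present in all 9 libraries, as were ENO2, PAX2 and WT1 at lower levels. LHX1 had 2.73 to 13.4 CPM with FHY1-M3, against 0, 3.25 and 0 CPM in input. Of the 8 line markers, 0 passed the test. Of 12 markers of other cell types, PTPRC of blood, CDH5 of endothelium and COL1A2 of fibroblasts were at 0 in all libraries. The other 9 had counts in some library, the highest being COL1A1 at 16.8 to 48.9 CPM with FHY1-M3, against 63.6, 13 and 10.5 CPM in input, and CD74 at 3.12 to 10.3 CPM with FHY1-M3, against 5.78, 9.75 and 10.5 CPM in input. Of those 12, 2 were tested and 0 passed, and their part in the results was not tested. Because the summed counts that chose the members come mostly from the deeper FHY1-M3 libraries, the choice leans towards genes high there, and the counts against input that follow are a description of the chosen genes.

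Against input, more ZNF genes were higher than lower in the FHY1-M3 libraries. The 302 genes took up 1.717% ± 0.0153 of the counts with FHY1-M3 (SD, n = 6), against 1.309% ± 0.0756 in input (SD, n = 3). The ACTB, con and non-target groups averaged 1.717%, 1.72% and 1.715%, and each of the 6 libraries stood above each input, whose shares were 1.40%, 1.26% and 1.27%. The same counts, mostly from the FHY1-M3 libraries, chose the members, so these shares are a description too. What the choice adds to the gap was not tested.

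In a fit over all 13411 genes tested, 71 of the 302 ZNF genes (23.5%) were higher with FHY1-M3 than in input and 20 (6.62%) were lower, at an adjusted p under 0.05. Over all genes tested the shares were 11.4% higher and 8.6% lower. Among the 9844 genes of any kind with 300 or more summed counts they were 15.1% and 9.47%. The median log2 fold change was 0.54 for the ZNF genes, with quartiles at -0.12 and 1.12, against 0.04 for all genes tested and 0.13 for those with 300 or more counts. Of the 302 genes, 216 had a positive and 86 a negative value. Libraries did not overlap for 82 genes higher and 22 genes lower, where all genes tested gave 14.9% and 8.51%.

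The number of calls went with depth. The 102 members with 300 to 639 counts held 9 higher and 5 lower genes, the 99 with 640 to 1084 counts held 21 and 4, and the 101 with 1089 or more held 41 and 11. Their median log2 fold changes were 0.43, 0.64 and 0.49. In the same order, 8.82%, 21.2% and 40.6% of these members were higher and 4.90%, 4.04% and 10.9% lower. All genes with 300 or more counts had 15.1% higher and 9.47% lower, but they were not split by count. Whether members of any count range departed from other genes of like counts was therefore not tested. When the FHY1-M3 libraries were thinned to 462026 counts each, 54 of the 290 members still tested were higher and 20 lower, and the median was 0.37, against -0.02 for all genes. At that depth 10.3% of all 9845 genes tested were higher and 11.6% lower. ZNF669 and ZNF501, both higher at full depth, were among the 12 members no longer tested. When 302 ZNF genes were chosen by input counts instead, 270 of them were the same, 54 were higher and 22 lower, and the median was 0.32. With the members as chosen here, 71 of 302 were higher and 20 lower, and the median was 0.54. Among all genes with 300 or more counts, 15.1% were higher and 9.47% lower, with a median of 0.13. The median SE was 0.44 on the log2 scale, and the 95% interval lay within a 2-fold difference either way for 47 of the 302 genes only.

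**Figure D1:**
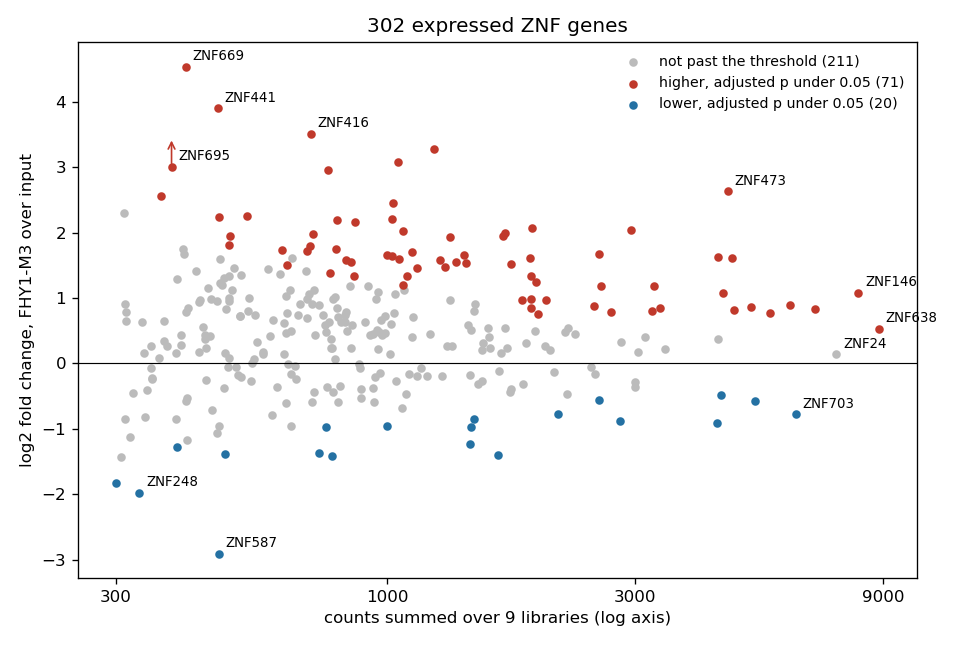
Log2 fold change of FHY1-M3 over input against counts summed over 9 libraries, on a log axis, for each of the 302 genes, with 71 higher genes in red, 20 lower genes in blue and 211 others in grey. ZNF695, with no input count, is drawn at its lower bound with an upward arrow, and ZNF587 is the lowest point at -2.91.

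ZNF473 gave the firmest difference among the larger ones. Its protein, also called ZFP100, takes part in the 3' end processing of replication-dependent histone pre-mRNAs. ZNF473 had 184.3, 209 and 239.2 CPM (read counts relative to scaled library size) as the lowest, median and highest of the FHY1-M3 libraries, against 40.5, 39.0 and 20.9 CPM in the inputs. The groups were far apart, and the log2 fold change was 2.63 (SE 0.24, adjusted p = 6.34e-11).

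Other members with large differences had few input counts. ZNF134 had 46.2, 58.8 and 63.6 CPM with FHY1-M3 (lowest, median and highest), against 5.78, 9.75 and 0 CPM in the inputs, a log2 fold change of 3.28 (SE 0.53, adjusted p = 1.43e-05). ZNF765, a gene of the chromosome 19 cluster described further on, had 33.5, 49.7 and 64.7 CPM, against 0, 13.0 and 0 CPM in the inputs (log2 fold change 3.07, SE 0.60, adjusted p = 0.000243). Its reads may be shared with ZNF761 through an annotated readthrough transcript. ZNF416 had 15.1, 31.7 and 55.4 CPM with FHY1-M3, against 0, 6.50 and 0 CPM in the inputs, and its log2 fold change was 3.51 (SE 0.74, adjusted p = 0.000657). ZNF239, which binds both DNA and RNA, had 30.1, 33.6 and 47.8 CPM with FHY1-M3, against 0, 3.25 and 10.5 CPM in the inputs (log2 fold change 2.96, SE 0.63, adjusted p = 0.000747). None of these 4 genes overlapped between the groups.

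ZNF140, a KRAB repressor, had 35.4, 48.2 and 59.0 CPM with FHY1-M3, against 0, 13.0 and 10.5 CPM in the inputs (log2 fold change 2.45, SE 0.53, adjusted p = 0.000771). It overlaps ZNF891 in the annotation. ZNF441 had 470 counts with FHY1-M3 and 2 counts in the inputs, a ratio of 14.8 with a 95% counting interval from 4.07 to 122. ZNF501, ZNF707 and ZNF511 completed the named genes, with log2 fold changes of 2.56 (SE 0.84), 2.25 (SE 0.67) and 2.24 (SE 0.70). These 3 calls rested on single libraries. ZNF501 had an adjusted p of 0.0528 without con sgRNA replicate 2, 0.0706 without input replicate 1 and 0.0920 without input replicate 3. ZNF707 had 0.0637 without input replicate 3, and ZNF511 had 0.0861 without con sgRNA replicate 1 and 0.0867 without input replicate 2.

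ZNF587 was the member with the largest decrease. It is a KRAB gene that, with its near copy ZNF417, is known for binding endogenous retroviral sequences, and reads may be split between such copies. ZNF587 had 7.52, 12.7 and 26.5 CPM as the lowest, median and highest with FHY1-M3, against 144.5, 65.0 and 107.2 CPM in the inputs (log2 fold change -2.91, SE 0.35, adjusted p = 5.43e-08). All 6 FHY1-M3 libraries were well below the inputs, and the value was -3.12 for ACTB, -1.98 for con and -3.63 for non-target, each set against the same inputs.

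ZNF655, a KRAB protein known to bind the signalling protein VAV1, had 52.0, 63.8 and 90.2 CPM with FHY1-M3, against 179.2, 169 and 167.3 CPM in the inputs. Its inputs lay close together, and the log2 fold change was -1.39 (SE 0.21, adjusted p = 6.5e-06). ZNF207 (BuGZ), which binds microtubules and BUB3 in spindle assembly, had 153.1, 180.4 and 211.7 CPM with FHY1-M3, against 436.5, 266.6 and 324.1 CPM in the inputs (log2 fold change -0.91, SE 0.15, adjusted p = 2.42e-05). ZNF460 had 39.5, 59.6 and 75.2 CPM with FHY1-M3, against 135.9, 126.8 and 151.6 CPM in the inputs (log2 fold change -1.23, SE 0.25, adjusted p = 0.000352). None of these 3 overlapped between the groups.

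ZNF248 had 4.84, 10.3 and 23.1 CPM with FHY1-M3, against 34.7, 50.4 and 47.0 CPM in the inputs (log2 fold change -1.98, SE 0.47, adjusted p = 0.0022), and it has an annotated antisense gene. ZNF70 and ZNF652, the last a repressor partner of CBFA2T3, had log2 fold changes of -1.37 (SE 0.32) and -0.96 (SE 0.25). ZNF805, ZNF529, ZNF628 and ZNF770 also passed, at -1.42, -1.38, -1.28 and -0.95, but not without some libraries. The adjusted p of ZNF805 was 0.122 without input replicate 1, where it had 138.8 CPM. For ZNF529 it was 0.054 without con sgRNA replicate 1, 0.0549 without non-target sgRNA replicate 1 and 0.163 without input replicate 1. For ZNF770 it was 0.0997 without ACTB sgRNA replicate 1, 0.0904 without con sgRNA replicate 2, 0.119 without non-target sgRNA replicate 1 and 0.354 without input replicate 3. ZNF628 missed the threshold without any of 7 of the 9 libraries, namely both ACTB and both con sgRNA replicates, non-target sgRNA replicate 1 and input replicates 2 and 3, with adjusted p between 0.0502 and 0.132.

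With the strand setting of the counting not given, a read in the overlap of a pair of genes may belong to either. Antisense genes are annotated over ZNF473, ZNF460, ZNF529 and ZNF652 as well as ZNF248, and over ZNF503 and ZNF217 among those described further on. ZNF511 overlaps TUBGCP2, ZNF529 overlaps ZNF382, ZNF146 overlaps ZNF565 and ZNF768 overlaps ZNF747.

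**Figure D2:**
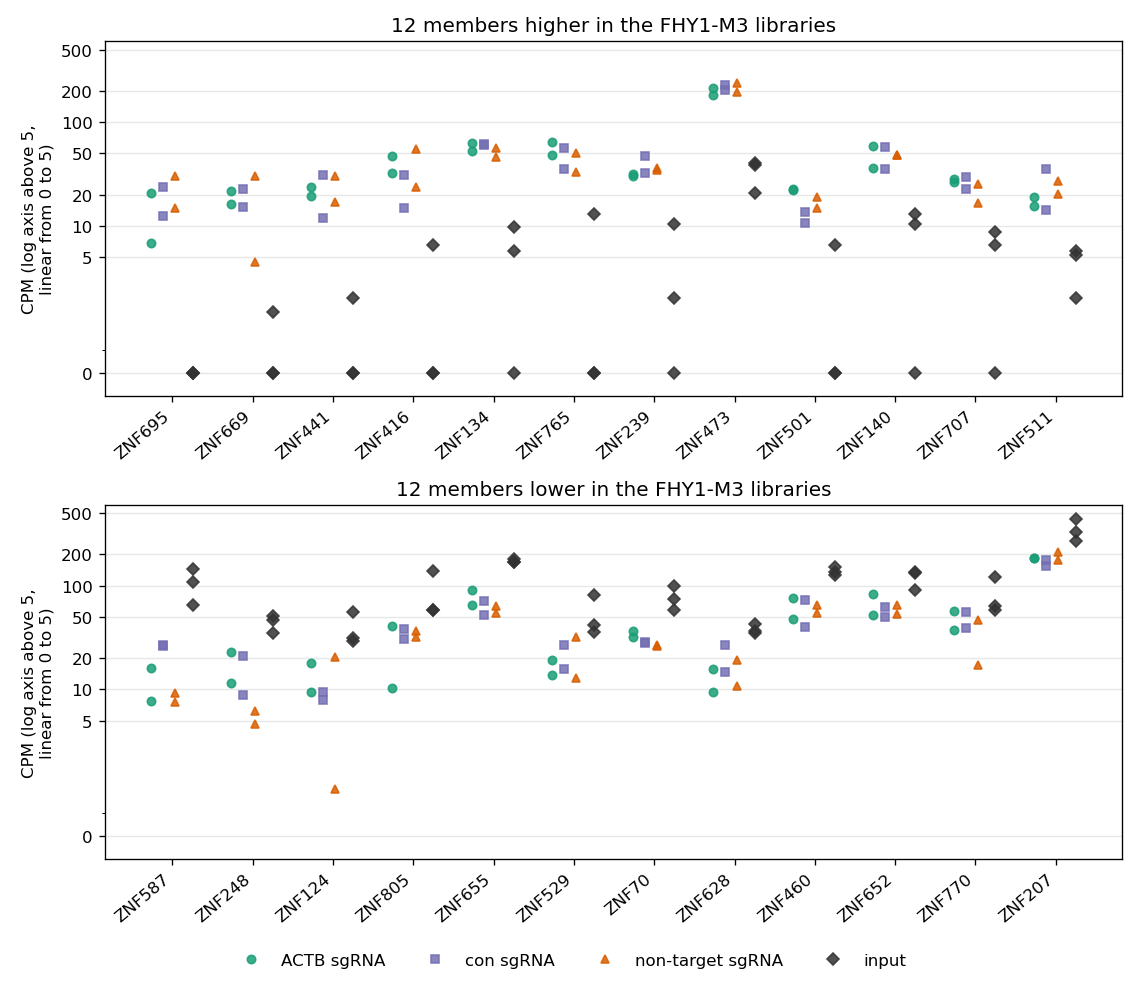
CPM in every library, on an axis that is logarithmic above 5 and linear from 0 to 5, for the 12 higher and 12 lower named members, with ACTB, con and non-target sgRNA libraries left of the inputs. ZNF473 stands at 184.3 to 239.2 CPM above its inputs, ZNF695 has all 3 inputs at 0, and ZNF587 lies at 7.52 to 26.5 CPM below its inputs.

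At the end of the long arm of chromosome 1, 3 neighbouring members differed in direction. ZNF695 and ZNF669 reached 300 summed counts through the FHY1-M3 libraries, where they were high. Their values and adjusted p are therefore a description only, and ZNF124 stood at the threshold with 300 counts. ZNF695 (chr1:246945546-247008057) had 384 counts with FHY1-M3 and 0 counts in the inputs. Its FHY1-M3 libraries held 6.94, 18.0 and 30.1 CPM as the lowest, median and highest (adjusted p = 0.000953). Pooled over these libraries the level was 17.96 CPM, which is 8.04-fold the level of 3 counts over the input group. If both mates of a pair were counted, this lower bound is too high. Its annotation overlaps a readthrough transcript with ZNF670. ZNF669 (chr1:247099962-247104356) had 408 counts with FHY1-M3 and 1 count in the inputs, a ratio of 25.6 with a counting interval from 4.58 to 1015 (adjusted p = 0.00395). ZNF124 (chr1:247121975-247172379) had 2.05, 9.38 and 20.4 CPM with FHY1-M3, against 28.9, 55.3 and 31.4 CPM in the inputs (log2 fold change -1.83, SE 0.54, adjusted p = 0.014). Without input replicate 2 the adjusted p of ZNF124 was 0.149. Further along, ZNF496, ZNF672 and ZNF692 had log2 fold changes of 0.20, 0.70 and 0.07, and none passed.

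The promoters of these 3 neighbours are shown because they resemble each other while the genes differed in direction, and that of ZNF587 because it had the largest decrease. Each is the 250 bases before the start site given in a RefSeq promoter table on GRCh38.p14, on the gene's own strand. For ZNF124 that site lies inside the annotated span of the gene, so its window does too. Capitals mark the motifs searched, on either strand: the ETS motif CCGGAAG or its reverse complement, the GC box GGGCGG of SP and KLF factors, and the E-box CACGTG. The heat shock element core GAANNTTC and the cAMP response element TGACGTCA were searched as well. The windows are chr1:247008058-247008307 (minus strand) for ZNF695, chr1:247104357-247104606 (minus) for ZNF669, chr1:247172021-247172270 (minus) for ZNF124 and chr19:57849609-57849858 (plus) for ZNF587.
ZNF695: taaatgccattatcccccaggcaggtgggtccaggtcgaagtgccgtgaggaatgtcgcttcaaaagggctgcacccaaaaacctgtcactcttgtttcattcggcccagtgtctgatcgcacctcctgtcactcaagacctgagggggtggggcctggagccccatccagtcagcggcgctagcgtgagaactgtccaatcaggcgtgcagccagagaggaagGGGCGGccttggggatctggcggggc
ZNF669: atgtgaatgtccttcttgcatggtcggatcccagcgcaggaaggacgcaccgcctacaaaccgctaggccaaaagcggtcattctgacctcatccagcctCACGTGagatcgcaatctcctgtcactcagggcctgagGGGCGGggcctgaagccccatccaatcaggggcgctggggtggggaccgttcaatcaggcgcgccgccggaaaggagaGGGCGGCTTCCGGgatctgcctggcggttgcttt
ZNF124: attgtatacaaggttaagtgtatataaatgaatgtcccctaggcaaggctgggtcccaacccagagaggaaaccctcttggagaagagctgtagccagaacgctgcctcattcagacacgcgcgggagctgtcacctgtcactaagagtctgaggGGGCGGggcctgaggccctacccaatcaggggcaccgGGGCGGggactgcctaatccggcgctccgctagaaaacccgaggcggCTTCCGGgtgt
ZNF587: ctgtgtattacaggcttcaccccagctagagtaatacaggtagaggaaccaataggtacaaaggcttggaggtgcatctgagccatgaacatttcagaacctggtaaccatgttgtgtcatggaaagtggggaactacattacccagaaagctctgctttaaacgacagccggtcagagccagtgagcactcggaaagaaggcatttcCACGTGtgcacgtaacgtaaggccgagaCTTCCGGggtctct
In local alignments of these windows, ZNF669 and ZNF124 had 79.3% identical positions over 217 aligned, and their longest shared run was 14 bases. ZNF695 and ZNF669 had 76.3% over 236, and ZNF695 and ZNF124 had 74.3% over 218. Set against ZNF587, the same 3 promoters gave 72.1%, 71.3% and 73.6% over 208 to 212 aligned positions, so part of this likeness is what the alignment gives between less related promoters too. The ETS motif stands near the end of the ZNF669, ZNF124 and ZNF587 windows and was not found in the ZNF695 window.

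Over the family, 264 of 302 members had a promoter in the table, here read as 300 bases from 250 before to 50 after the start. The ETS motif was in 41.7% of them, against 21.4% of the promoters of all genes tested and 12.2% of all 27305 in the table. It was in 52.4% of 63 promoters of higher members, 38.9% of 18 of lower members and 38.3% of 183 of the others. The GC box was in 70.5% of member promoters, against 77.6% of all genes tested and 48.3% of the table. The E-box was in 6.44% of member promoters, against 12.6% and 8.78%. Each promoter was counted once per motif, and matches of different motifs could overlap. The cAMP response element was in 5.68%, against 3.73% and 2.25%, and the heat shock core in 6.82%, against 6.61% and 8.21%. A match says that the letters are there, not that a factor binds.

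The members with the most counts were measured most closely. ZNF638, which works with the HUSH complex in silencing unintegrated retroviral DNA, had 363.2, 401.1 and 435.3 CPM with FHY1-M3, against 254.4, 286.1 and 279.7 CPM in the inputs (log2 fold change 0.53, SE 0.13, adjusted p = 0.00237). ZNF146, a protein made almost wholly of zinc fingers, had 330.6, 362.1 and 403.8 CPM, against 141.7, 182 and 193.4 CPM in the inputs (log2 fold change 1.08, SE 0.14, adjusted p = 5.7e-07). Neither gene overlapped between the groups. ZNF24, a SCAN domain repressor, had 308.1, 316.3 and 361.3 CPM with FHY1-M3, against 266, 295.8 and 318.9 CPM in the inputs, and did overlap. Its log2 fold change was 0.14, with a 95% interval from -0.12 to 0.40.

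ZNF703 and ZNF503, the pair of human NLZ family co-repressors, differed in sign. ZNF503 had 259.1, 269.1 and 276.7 CPM with FHY1-M3, against 144.5, 143 and 146.4 CPM in the inputs (log2 fold change 0.90, SE 0.15, adjusted p = 4.38e-05). ZNF703 had 247.2, 255.5 and 282.1 CPM with FHY1-M3, against 433.6, 466.5 and 426.1 CPM in the inputs (log2 fold change -0.78, SE 0.12, adjusted p = 7.91e-06). In both genes the libraries of each group lay close together and apart from the other group. ZNF768 (0.83), ZNF644, a partner of the histone methyltransferases EHMT1 and EHMT2 (0.77), and ZNF664 (-0.57) also passed.

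Of 38 listed KRAB genes with described targets, 26 were members, and 10 of them were higher and 2 lower, with a median log2 fold change of 0.83. The median is the same with ZNF695 at its bound. These shares were 38.5% and 7.69%, beside 23.5% and 6.62% of the 302 members. Among all genes with 300 or more counts they were 15.1% and 9.47%. Earlier results of these data were known when the list was drawn up, so its shares are a description. The higher genes were ZNF695, ZNF765, ZNF274, ZNF202, ZNF268, ZNF689, ZNF45, ZNF430, ZNF675 and ZNF768, the last of which is not known as a KRAB gene. With each of the 9 libraries left out in turn, ZNF45 passed 7 times and ZNF675 3 times. ZNF274, which brings SETDB1 to the 3' ends of other zinc finger genes, had 112.5, 137.9 and 155.3 CPM with FHY1-M3, against 11.6, 52.0 and 26.1 CPM in the inputs (log2 fold change 2.04, SE 0.29, adjusted p = 2.5e-06). ZNF202, a repressor of lipid metabolism genes, had 64.1, 74.8 and 99.9 CPM, against 5.78, 35.8 and 10.5 CPM in the inputs (log2 fold change 1.95, SE 0.39, adjusted p = 0.000337). Both were clear of their inputs in every library. The lower genes were ZNF587 and ZNF445, which takes part in keeping imprinting marks. ZNF445 had 100.1, 117.6 and 137.3 CPM with FHY1-M3, against 225.5, 185.3 and 240.5 CPM in the inputs (log2 fold change -0.88, SE 0.17, adjusted p = 0.000284).

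Of 33 listed transcription and chromatin genes without KRAB, 31 were members, and 6 were higher and 2 lower, with a median of 0.20. These shares of 19.4% and 6.45%, and the median, were near the 15.1%, 9.47% and 0.13 of all genes with 300 or more counts. ZNF408, a gene of inherited retinal disease, had the largest difference, with 28.9, 40.1 and 51.2 CPM with FHY1-M3, against 11.6, 9.75 and 5.23 CPM in the inputs (log2 fold change 2.16, SE 0.50, adjusted p = 0.00183). ZNF281, a regulator of stem cell and mesenchymal programmes, was higher at 0.85 (SE 0.21), as were ZNF503, ZNF644, ZNF148 and ZNF131, while ZNF652 and ZNF703 were lower. With each of the 9 libraries left out in turn, ZNF148 passed 6 times and ZNF131 2 times. ZNF608 at 1.09 (SE 0.41, adjusted p = 0.056) and ZNF217, an oncogene product that binds CtBP, at 0.91 (SE 0.36, adjusted p = 0.0741) did not pass. Without input replicate 1 the adjusted p of ZNF217 was 0.00635.

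Of 19 listed RNA, ribosome, spindle and ubiquitin or SUMO genes, 18 were members, and 4 were higher and 2 lower (22.2% and 11.1%), with a median of 0.39. Among all genes with 300 or more counts, 15.1% were higher and 9.47% lower. The higher ones were ZNF473, ZNF184, ZNF318 and ZNF638 and the lower ones ZNF655 and ZNF207. ZNF184 is itself a KRAB gene; it had 71.1, 90.9 and 91.9 CPM with FHY1-M3, against 75.2, 29.3 and 10.5 CPM in the inputs, so the groups overlapped. Its log2 fold change of 1.25 (SE 0.35, adjusted p = 0.00872) had an adjusted p of 0.0691 without input replicate 2 and 0.0762 without input replicate 3. ZNF830 (1.44), ZNF622, which takes part in maturing the large ribosomal subunit (1.12), and ZNF706 (-1.06) did not pass. The adjusted p of ZNF830 was 0.042 without input replicate 2, that of ZNF622 was 0.00247 without input replicate 1, and that of ZNF706 was 0.0433 without ACTB sgRNA replicate 2.

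The partners through which KRAB genes act were measured for 30 of 31 listed genes, with 7 higher, 3 lower and a median of 0.21. That is 23.3% and 10% of them, beside 15.1% and 9.47% of all genes with 300 or more counts. TRIM28, the direct partner of the KRAB domain, averaged 564.4 ± 17.1 CPM with FHY1-M3 (SD, n = 6), against 379 ± 44.5 CPM in input (SD, n = 3), a log2 fold change of 0.58 (SE 0.11, adjusted p = 0.000192). SETDB1 had a log2 fold change of 0.17 (SE 0.26) and did not pass. CBX5, the HP1 alpha protein, averaged 222.9 ± 20.1 CPM with FHY1-M3, against 596.8 ± 35.1 CPM in input (log2 fold change -1.42, SE 0.11, adjusted p = 2.41e-12). UHRF1, which guides maintenance DNA methylation, averaged 201.1 ± 33.5 CPM with FHY1-M3, against 68.3 ± 40.9 CPM in input (log2 fold change 1.46, SE 0.24, adjusted p = 2.17e-05). The histone chaperone gene DAXX was higher at 0.90, and RBBP4, a subunit of chromatin complexes, was lower at -0.67. DNMT1, the methyltransferase that UHRF1 guides, was lower too, at 703.4 ± 40.5 CPM with FHY1-M3, against 1573, 801.3 and 990.7 CPM in the inputs (log2 fold change -0.66, SE 0.12, adjusted p = 5.53e-05). Without input replicate 1, the highest of its libraries, the DNMT1 value was -0.34 (adjusted p = 0.007). HDAC1 (0.63) and MTA2 (0.49), of histone deacetylase complexes, were higher. MTA2 had an adjusted p of 0.0816 without ACTB sgRNA replicate 1, 0.0699 without con sgRNA replicate 2, 0.0546 without non-target sgRNA replicate 2 and 0.121 without input replicate 1. The DNA methyltransferase gene DNMT3A (0.996) and the histone methyltransferase gene EHMT2 (0.82) also passed. DNMT3A did not without con sgRNA replicate 1, input replicate 2 or input replicate 3 (adjusted p 0.0601, 0.0656 and 0.0887), nor EHMT2 without non-target sgRNA replicate 2 or input replicate 2 (0.0760 and 0.188).

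On chromosome 19 lay 126 of the 302 members (41.7%), of which 31 were higher (24.6%) and 8 lower (6.35%), with a median log2 fold change of 0.72. The 176 members elsewhere had 40 higher (22.7%), 12 lower (6.82%) and a median of 0.44, so the shares called were close. The 727 tested chromosome 19 genes outside the zinc finger families, not limited to 300 or more counts, had 16.1% higher, 6.19% lower and a median of 0.15. Members under 500000 bases apart were then joined. The stretch of 19 members between ZNF175 and ZNF761 (chr19:51571283-53458261) had 7 higher (36.8%) and 0 lower genes, beside 15.1% and 9.47% of all genes with 300 or more counts. All 19 values were positive, between 0.16 and 3.07, where 216 of all 302 members had a positive value. The 7 were ZNF765, ZNF160, ZNF615, ZNF28, ZNF845, ZNF614 and ZNF766. With each of the 9 libraries left out in turn, ZNF765, ZNF845 and ZNF614 passed 9 times, ZNF615 8, ZNF28 7, ZNF766 3 and ZNF160 2 times. ZNF614 had 66.1, 92.7 and 96.2 CPM with FHY1-M3, against 23.1, 32.5 and 26.1 CPM in the inputs (log2 fold change 1.60, SE 0.31, adjusted p = 0.000248), with no overlap.

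The 13 members between ZNF576 and ZNF180 (chr19:43596392-44500522) had a median of 0.98, with 3 higher (23.1%) and 0 lower. The higher ones, ZNF180, ZNF45 and ZNF155, passed 9, 7 and 2 of those 9 times. Over all 302 members 23.5% were higher and 6.62% lower, and over all genes with 300 or more counts 15.1% and 9.47%. The 28 members between ZNF264 and ZNF324 (chr19:57191500-58475436) held both directions, with 7 higher and 3 lower (25% and 10.7%). Among the higher ones, ZNF416, ZNF134, ZNF274 and ZNF776 passed all 9 times, ZNF324 7, ZNF584 2 and ZNF17 1. Among the lower ones, ZNF587 and ZNF460 passed all 9 times and ZNF805 8 times. The 8 members between ZNF628 and ZNF71 had a median of -0.01. These stretches were set after their values had been seen, their genes are near copies that can share reads, and no test was made of one against another. Median counts over the 3 inputs together were 22 in the stretch from ZNF175 and 20 in that from ZNF264. Gene span and log2 fold change had a Spearman correlation of -0.15 over the 302 members and -0.10 over 12912 genes, as a description across genes, which are not independent.

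Other zinc finger families with 300 or more counts were set beside these genes. The 25 ZSCAN, ZKSCAN and ZFP genes had 6 higher (24%), 2 lower (8%) and a median of 0.74. The 302 members had 23.5%, 6.62% and 0.54, and all genes with 300 or more counts had 15.1%, 9.47% and 0.13. The 35 ZBTB genes, whose proteins join a BTB domain to the fingers, had 6 higher (17.1%), 5 lower (14.3%) and a median of 0.10. The 20 ZNF genes with a letter after the number had 3 higher (15%), 1 lower (5%) and a median of 0.17. Of the 170 ZNF symbols under 300 counts, 103 were tested, with 2 higher, 2 lower (1.94% each) and a median of -0.14. Just inside the threshold stood ZNF124, ZNF774, ZNF799, ZNF18 and ZNF554 with 300 to 313 counts, and just outside ZNF568, ZNF396, ZNF814, ZNF165 and ZNF582 with 295 to 283 counts.

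Each guide group was also set against the same 3 inputs. Members higher and lower numbered 52 and 9 for ACTB sgRNA (17.2% and 2.98%), 51 and 11 for con sgRNA (16.9% and 3.64%) and 53 and 13 for non-target sgRNA (17.55% and 4.3%). In that order, all genes tested gave 7.05% and 3.97%, 7.22% and 4.22%, and 8.1% and 4.57%. Genes with 300 or more counts gave 9.46% and 4.9%, 9.64% and 5.31%, and 10.6% and 5.55%. The medians of the members were 0.53, 0.56 and 0.56. With 1 library of the guide left out, higher members numbered 23 or 24 for ACTB, 28 for con and 26 or 32 for non-target, and lower members 4, 3 or 5, and 6 or 7. All genes fell alike in these fits, to 3.02% or 3.35% higher for ACTB, 2.89% or 2.99% for con and 3.48% or 4.33% for non-target. The con count of higher members was also 64 and the non-target count 68 without input replicate 1. Leaving out other libraries moved the ACTB count of lower members to 6 at the least, without con sgRNA replicate 1 or 2.

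Between guides no member passed the test by edgeR or DESeq2. At an unadjusted p under 0.05, edgeR gave 19 members (6.29%) when ACTB was set against non-target, 15 (4.97%) when ACTB was set against con and 16 (5.30%) when con was set against non-target, beside 7.82%, 3.86% and 5.25% of the 12808 genes tested. At an adjusted p under 0.05 those genes gave 0.25%, 0.0312% and 0.172%. Median log2 fold changes of the members were 0.01, -0.00 and 0.01. The 95% interval lay within a 2-fold difference either way for 140, 149 and 152 of the 302 genes, so larger differences were not excluded for the rest.

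Among the smallest p-values was ZNF431, with 80.4 and 96.0 CPM with ACTB sgRNA, against 47.3 and 50.6 CPM with non-target sgRNA. Its libraries did not overlap, at a log2 fold change of 0.85 (SE 0.28, adjusted p = 0.339). With 2 libraries per group this was common. In that comparison 45 members higher and 44 lower did not overlap, beside 2236 and 2256 of the 12808 genes tested. The numbers were 48 and 60 members for ACTB against con, beside 2181 and 2201 genes, and 49 and 52 for con against non-target, beside 2217 and 2245. ZNF641 had 24.9 and 37.9 CPM with ACTB sgRNA, against 59.3 and 59.8 CPM with con sgRNA and 48.9 and 69.7 CPM with non-target sgRNA. Its ACTB libraries lay below those of either other guide, with log2 fold changes of -0.92 against con (SE 0.33, adjusted p = 1) and -0.91 against non-target (SE 0.33, adjusted p = 0.469). ZNF324 had 35.6 and 30.1 CPM with ACTB sgRNA, against 75.7 and 43.6 CPM with con sgRNA and 77.9 and 45.8 CPM with non-target sgRNA, at -0.85 and -0.91. These 2 pairs of comparisons share the ACTB libraries.

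ZNF587 had 26.5 and 26.2 CPM with con sgRNA, against 9.13 and 7.52 CPM with non-target sgRNA, a log2 fold change of 1.66 (SE 0.58, adjusted p = 0.765), and both con libraries were above both others. ZNF248 had 11.6 and 23.1 CPM with ACTB sgRNA, against 4.84 and 6.15 CPM with non-target sgRNA (1.66, SE 0.67, adjusted p = 0.535). ZNF580 had 28.2 and 23.7 CPM with ACTB sgRNA, against 5.91 and 10.9 CPM with non-target sgRNA (1.64, SE 0.55, adjusted p = 0.37), and it overlaps ZNF581. The other named genes were ZNF792 (1.61), ZNF260 (0.90) and ZNF576 (1.34) for ACTB against con, and ZNF107 (-0.79), ZNF100 (0.90), ZNF182 (-1.01) and ZNF212 (0.92) for con against non-target.

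**Figure D3:**
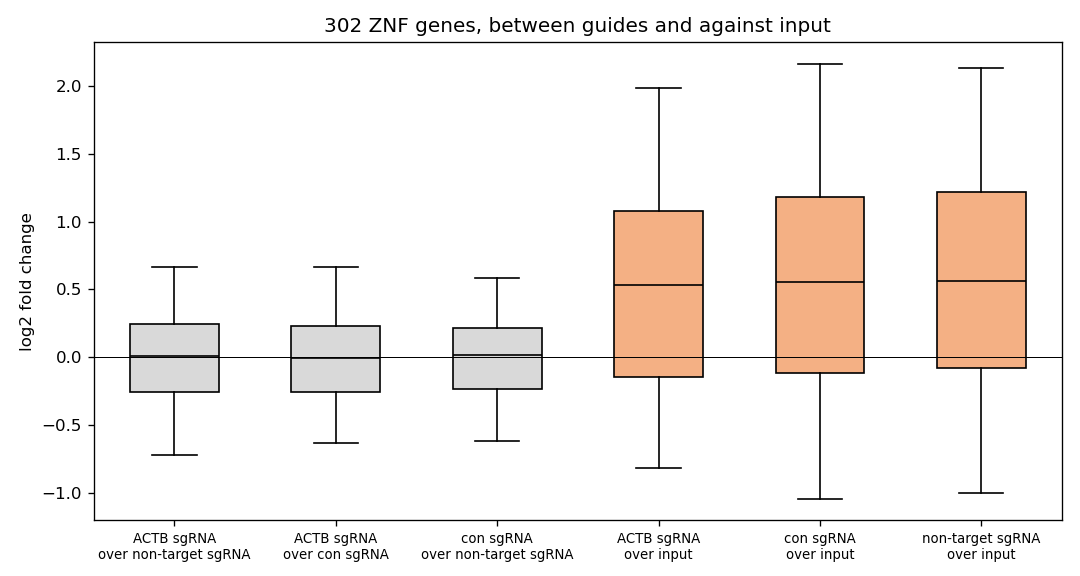
Log2 fold changes of the 302 members between guides (grey) and of each guide over the shared inputs (orange), as boxes from quartile to quartile with the median and whiskers to the outermost members within the 5th and 95th percentiles. Medians are 0.01, -0.00 and 0.01 between guides and 0.53, 0.56 and 0.56 over input.

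Replicates of a group differed by a median of 0.28 to 0.36 on the log2 scale over the members with FHY1-M3, against 0.64 to 0.92 in input. Over all genes with 300 or more counts these medians were 0.23 to 0.30 with FHY1-M3, against 0.50 to 0.64 in input.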

How the data were processed

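RNA of HEK293T cells was sequenced in 9 libraries (6 FHY1-M3, 3 input). The authors deposited raw counts per gene symbol. Per the submitters' processing notes, cutadapt 4.3, STAR 2.7.10b, deepTools and hg38 were used; which tool counted reads, and with what strand setting, is not given in the sources used here. Between 82.8% and 90.9% of the members' non-zero counts per library were even, as when both mates of a pair are counted, so counting intervals are too narrow.

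Counts were tested with edgeR 4.0.16 (quasi-likelihood, TMM scaling, filterByExpr by group, two-sided, Benjamini-Hochberg over all genes, threshold 0.05) in R 4.3.3. Comparisons with input used all 9 libraries and those between guides used 6. SE is the log2 fold change divided by the root of F. Printed CPM use the scaling of all 9 libraries. A group at 0 was bounded at 3 counts over the group. Nothing in the labels ties replicates to separate cultures, so p-values describe the spread between libraries, which may be technical; replicates differed beyond counting noise (chi-square per degree of freedom 1.81 to 5.12). The procedure was tested on simulated data.

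Named were up to 12 members per direction with the largest difference from input and no overlap between libraries, the 5 smallest p per guide pair, the 8 highest counts, the 5 nearest the threshold on each side, and up to 6 by size per role list; ZNF445, TRIM28, SETDB1, DNMT1, HDAC1, MTA2 and the genes named by chromosome stretch were chosen after their values were seen. Members and lists were chosen with earlier results of these data known. Gene coordinates and promoters are from RefSeq (GRCh38.p14). Alternatives covered scaling, filters, DESeq2 1.42.0, a replicate block, depth, the member threshold and each library left out.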

Additional observations from a re-analysis of the deposited data

Results flagged for a closer look

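Among the 6 FHY1-M3 libraries, 58 named members were searched for a library far from the others by Dixon's test, which flags about 1 in 20 groups by chance, and 4 were found. ZNF184 was lowest in non-target sgRNA replicate 2 at 71.07 CPM, with the nearest library at 88.93 CPM. ZNF202 was highest in non-target sgRNA replicate 1 at 99.94 CPM, with the nearest at 77.22 CPM. ZNF239 was highest in con sgRNA replicate 2 at 47.76 CPM, with the nearest at 36.22 CPM. ZNF805 was lowest in ACTB sgRNA replicate 2 at 10.41 CPM, with the nearest at 30.68 CPM.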

How the results depend on the processing

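Of the members called against input, 40 of 71 higher and 10 of 20 lower ones kept their call under all 18 alternatives. No named gene changed direction. The median log2 fold change was 0.3732 with the FHY1-M3 libraries thinned and 0.3183 with members chosen by input counts; the cause was not tested. With the members unchanged, it was 0.39 to 0.57 above that of all genes tested under every refit. Those genes include ones under 300 counts. In the main fit the medians were 0.54 for the members, 0.13 for genes with 300 or more counts and 0.04 for all genes tested. Leaving out each library gave 56 to 76 higher and 14 to 19 lower members, and DESeq2 gave 70 and 23. Without mitochondrial and histone genes, an alternative chosen after seeing the data, the counts were 69 and 20. No member was called between guides under any alternative. Same-numbered libraries share only a number, with correlations of deviations of 0.0111, -0.00633 and -0.0197; with the replicate number as a block, 55 members were higher, 17 were lower and the median was 0.51. Input depth limits the precision of the low members.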
